A study of Homo sapiens with 15 samples.

Results

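The genes described are 8 transcription factors that mark or pattern the primitive streak: TBXT, EOMES, MIXL1, GSC and LHX1, and the caudal-type homeobox factors CDX1, CDX2 and CDX4. They were taken by symbol from a table of 60605 genes, and all 8 were among the 21206 genes that reached an FPKM of 1 in 1 or more libraries. FPKM is the read count of a gene scaled to its exonic length and to the total count of the library. Bulk RNA sequencing was applied to 15 libraries of wild-type H1 cells, an established human embryonic stem cell line. Days 0, 1 and 2 had 1 library each. All cells received the WNT activator CHIR99021 on Day 0 and insulin on Day 1, per the study's methods. From Day 2 the culture was followed in 3 arms with 1 library each on Days 3, 5, 7 and 10. NP-ctrl cells were not passaged and differentiated without a further inducer. NP-IWP2 cells stayed in place too and were given IWP2, which blocks secretion of WNT ligands, from Day 2 to Day 4. Passaged cells were dissociated on Day 2, replated and left without an inducer. Per the paper, these cells were also diluted on replating, and its later differentiation experiments used EDTA for dissociation and an added ROCK inhibitor. Every group is therefore 1 library of 1 cell line, and the intervals below are 95% counting intervals that do not contain the spread between cultures. Total counts ranged from 13254723 to 20250115 per library, and 3 counts were taken as the floor of detection.

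The primitive streak is the region of the gastrulating embryo through which epiblast cells pass to become mesoderm and endoderm, and WNT, NODAL and FGF signals induce it. TBXT (Brachyury) and EOMES are T-box factors at the head of this program. MIXL1 is a homeobox target of NODAL signalling, GSC is a homeobox repressor of the anterior streak and organizer, and LHX1 is a LIM-homeobox factor of the node and early mesendoderm. The CDX factors act in the posterior streak, where they respond to WNT and activate HOX genes of the trunk, and CDX2 is also a factor of trophoblast and intestinal epithelium.

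The genes lie on 8 different chromosomes. Coordinates are those of the deposited table, on GRCh38, and each is identical to GENCODE release 44. TBXT is at chr6:166157656-166168700 on the minus strand, EOMES at chr3:27715949-27722711 (minus), MIXL1 at chr1:226223618-226227060 (plus) and GSC at chr14:94768223-94770113 (minus). LHX1 is at chr17:36936785-36944612 (plus), CDX1 at chr5:150166778-150184558 (plus), CDX2 at chr13:27960918-27969315 (minus) and CDX4 at chrX:73447053-73455171 (plus).

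Because the shared stimulus was a WNT activator, the 250 bases before the RefSeq starts of these genes were searched on both strands for CTTTGA, the core of TCF/LEF sites through which WNT signalling acts, and for TTTATNG, the core of a CDX site, AATCCACA, a FOXH1 site of NODAL signalling, and AGGTGTGA, a T-box site. RefSeq promoters (GRCh38.p14) were matched for 6 of the 8 genes, and CDX1 and LHX1 were not in the table. Of 35114 promoter windows of this length, 11.2% held CTTTGA, 8.93% TTTATNG, 0.709% AATCCACA and 0.786% AGGTGTGA. The stretches below are sequence before the start of the gene, written 5′ to 3′ on its own strand, with motif matches in capitals. They are shown for MIXL1, a streak gene that was high on Day 1, for CDX2, which was also high on Day 1 but differed from MIXL1 under IWP2, and for CDX4, which was not higher on Day 1. They lie at chr1:226223414-226223617 (plus strand), chr13:27969316-27969565 (minus strand) and chrX:73446803-73447052 (plus strand).
MIXL1: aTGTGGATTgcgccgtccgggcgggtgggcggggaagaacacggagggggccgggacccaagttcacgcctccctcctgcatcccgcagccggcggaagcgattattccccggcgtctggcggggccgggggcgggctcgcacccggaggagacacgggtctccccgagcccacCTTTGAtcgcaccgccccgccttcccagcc
CDX2: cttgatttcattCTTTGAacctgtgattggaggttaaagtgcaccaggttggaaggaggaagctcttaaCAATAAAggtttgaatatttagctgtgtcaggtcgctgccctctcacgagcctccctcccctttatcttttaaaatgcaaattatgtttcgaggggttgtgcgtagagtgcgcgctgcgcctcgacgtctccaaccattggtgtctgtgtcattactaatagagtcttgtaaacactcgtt
CDX4: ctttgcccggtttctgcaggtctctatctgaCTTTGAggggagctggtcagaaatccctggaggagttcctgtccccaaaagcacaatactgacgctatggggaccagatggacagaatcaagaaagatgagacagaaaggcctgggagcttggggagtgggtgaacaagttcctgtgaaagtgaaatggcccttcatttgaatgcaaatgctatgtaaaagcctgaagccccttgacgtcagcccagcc
In MIXL1 the match to CTTTGA lies 76 bases before the RefSeq start, and a FOXH1 match on the opposite strand (TGTGGATT) begins 249 bases before it. CDX2 holds CTTTGA at 238 bases and a CDX match on the opposite strand (CAATAAA) at 181 bases before its start, and CDX4 holds CTTTGA at 219 bases. GSC, EOMES and the more upstream of the RefSeq starts of TBXT had no match to these letters in the window. The RefSeq start of EOMES lies 388 bases inside the gene as the files give it. Its whole window thus lies within the gene, and the sequence before the gene was not searched. Before the other RefSeq start of TBXT, which lies inside the gene as the files give it, there was a TCF/LEF match on the opposite strand (TCAAAG) at 87 bases and a CDX match (TTTATGG) at 31 bases. No window held the T-box letters. The matches are descriptions of letters, and both a gene that was higher on Day 1 and one that was not carry CTTTGA.

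The first question was when each gene reached its highest level. Of the 8 genes, 7 had their highest FPKM of all 15 libraries on Day 1, as did 6.29% of the genes above the filter, and LHX1 had its highest on Day 2, as did 5.38%. From Day 0 to Day 1, 6 genes were higher by at least 1 on log2(FPKM + 1), a difference reached by 3.26% of all genes in that direction, and none of the 8 was lower (3.48% of all genes). The median difference of the 8 genes was 4.75, and that of all genes was 0.

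MIXL1 reached the highest level of the group, from an FPKM of 3.27 on Day 0 to 788.66 on Day 1, a ratio of 241 (200 to 293). TBXT went from 0.18 to 214.0, which is 1182-fold (600 to 2738), and EOMES from 0.19 to 169.14, 875-fold (500 to 1693). GSC was already detected on Day 0 at 1.40 and reached 60.13, 43.1-fold (29.5 to 65.7). All 4 were highest in the Day 1 library, from starting levels that ranged from 0.18 to 3.27. Among the CDX genes, CDX1 had 3 counts on Day 0 and 988 on Day 1 (FPKM 0.10 and 30.19), a ratio of 303 (103 to 1472). CDX2 had 0 counts on Day 0 and 805 on Day 1 (FPKM 12.41), at least 247-fold higher when Day 0 is set to the floor. CDX4 was present at a low level before induction and did not differ between these days, with 42 and 47 counts (FPKM 1.51 and 1.55) and a ratio of 1.03 (0.665 to 1.60).

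LHX1 followed the other streak genes by a day. Its counts were 31 on Day 0 and 36 on Day 1 (FPKM 0.37 and 0.40), a ratio of 1.07 (0.643 to 1.79), and 17603 on Day 2 (FPKM 176.93), 445-fold higher than on Day 1 (321 to 636). It was the only one of the 8 genes with a difference of 1 or more upward from Day 1 to Day 2 (4.34% of all genes), while 3 had one downward (2.66% of all genes). MIXL1 was 3.97-fold lower (3.88 to 4.07) at an FPKM of 198.55, and CDX1 was 18.1-fold lower (13.9 to 23.9) at 1.67. TBXT, the third, was 2.24-fold lower at 95.35. CDX2 was 2.11-fold lower (1.87 to 2.37) at 5.90, GSC 1.51-fold lower at 39.81 and EOMES 1.32-fold lower at 128.45. On Day 2 the culture thus held LHX1 at its highest level together with EOMES, MIXL1 and TBXT, while CDX1 had largely disappeared. In bulk samples, fewer cells that express a gene and less RNA of it per cell cannot be told apart.

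**Figure D1:**
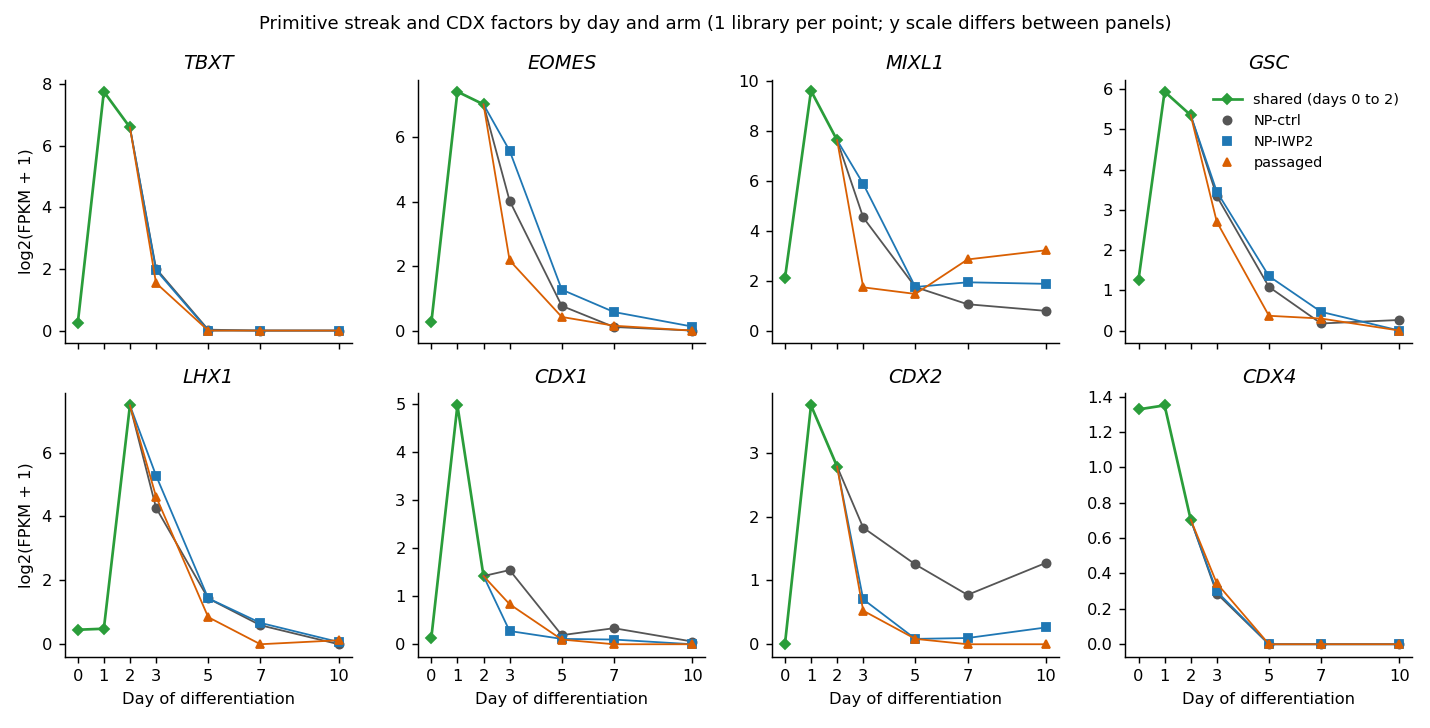
Level of each gene as log2(FPKM + 1) (y axis, scale differs between panels) against day of differentiation (x axis), with 1 library per point. Green diamonds are the shared Days 0 to 2, and grey circles, blue squares and orange triangles are NP-ctrl, NP-IWP2 and passaged cells. Of the 8 genes, 7 are highest on Day 1 and LHX1 on Day 2, and MIXL1 in passaged cells goes from 1.77 FPKM on Day 5 to 8.33 on Day 10.

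The next question was how fast the genes were shut off after Day 2. The level left on Day 3 was expressed as a percentage of the higher of the Day 1 and Day 2 levels. This share includes any fall between Day 1 and Day 2. In NP-ctrl and in NP-IWP2 cells 4 of the 8 genes were under 10% of that peak, and in passaged cells 6 were. CDX1 is counted in every arm, but it was already at 5.53% of its peak on Day 2, before the arms split. Among the 2474 genes above the filter whose highest level was on Day 1 or Day 2, 12.2% were under 10% in NP-ctrl, 10.2% with IWP2 and 15.4% after passaging. The median level left was 9.69%, 11.1% and 3.06% for the 8 genes in these arms, and 50.6%, 58.4% and 51.0% for the 2474 genes. The 2474 genes are not matched to the 8 in timing or induction. Of them, 1333 were highest on Day 1 and 1141 on Day 2, whereas of the 8 genes LHX1 alone was highest on Day 2. No rise from Day 0 was required of them.

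TBXT was under 2% of its peak in every arm. Its FPKM on Day 3 was 3.03 for NP-ctrl, 2.90 for NP-IWP2 and 1.91 for passaged cells, which is 1.41% (1.18 to 1.68), 1.36% (1.11 to 1.65) and 0.892% (0.692 to 1.13) of its Day 1 level. From Day 2 this was 31.5-fold, 32.8-fold and 49.9-fold lower. On Day 5 it had 1 count in NP-ctrl cells and 0 in the other arms, at least 35.6-fold below Day 3 in NP-IWP2 and at least 25.3-fold in passaged cells, and no library of Day 7 or Day 10 had a read of it. TBXT was the only streak gene at or under the floor in all 3 arms on Day 5.

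EOMES and MIXL1 covered the widest range of streak genes between arms. On Day 3 EOMES stood at 15.31 for NP-ctrl, 46.8 for NP-IWP2 and 3.52 for passaged cells, or 9.05% (8.45 to 9.69), 27.7% (26.4 to 28.9) and 2.08% (1.78 to 2.41) of its peak. MIXL1 was at 22.28, 58.29 and 2.33 in the same order, or 2.83% (2.62 to 3.04), 7.39% (7.02 to 7.77) and 0.296% (0.228 to 0.377). In passaged cells MIXL1 was 85.0-fold and EOMES 36.5-fold lower than on Day 2, compared with 8.91-fold and 8.39-fold in NP-ctrl cells and 3.41-fold and 2.74-fold in NP-IWP2 cells. For MIXL1 the Day 5 level of passaged cells, 1.77, did not differ from Day 3 within counting error (ratio 0.758, 0.520 to 1.10), while NP-ctrl and NP-IWP2 cells were a further 9.47-fold and 24.7-fold lower on Day 5, at 2.35 and 2.36. EOMES was lower again in each arm on Day 5, at 0.70, 1.41 and 0.34.

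GSC and LHX1 kept larger shares of their peaks than TBXT and MIXL1 in every arm. GSC kept 15.2% (12.8 to 17.8) of its peak with no inducer, 16.5% (13.9 to 19.6) with IWP2 and 9.17% (7.28 to 11.4) after passaging, at FPKM values of 9.12, 9.94 and 5.51. LHX1 kept 10.3% (9.79 to 10.9), 21.4% (20.5 to 22.3) and 13.4% (12.7 to 14.1), at 18.28, 37.86 and 23.62. Since LHX1 peaked on Day 2, these are levels 1 day after its peak, and those of the other 7 genes are 2 days after theirs. By Day 5 LHX1 was at 1.70, 1.71 and 0.80, and in passaged cells it had 0 counts on Day 7, at least 19.6-fold below Day 5. LHX1 in NP-ctrl, at 10.3%, and GSC in passaged cells, at 9.17%, lie close to the 10% limit.

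Of the CDX genes, CDX2 kept the largest share in NP-ctrl cells. It was at 2.55 there, 20.6% (17.1 to 24.6) of its peak, and at 0.63 and 0.44 in NP-IWP2 and passaged cells, 5.09% (3.41 to 7.33) and 3.52% (2.16 to 5.41). CDX1 did not differ between Day 2 and Day 3 in NP-ctrl cells (60 and 55 counts, ratio 1.14, 0.778 to 1.67), but was lower in NP-IWP2 cells (ratio 0.125, 0.0392 to 0.308) and 2.13-fold lower in passaged cells. CDX4 had 21 counts on Day 2, 5 or 6 counts in each arm on Day 3 and 0 counts in all later libraries, so its share of the peak, 14.5% to 17.2%, is poorly determined.

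**Figure D2:**
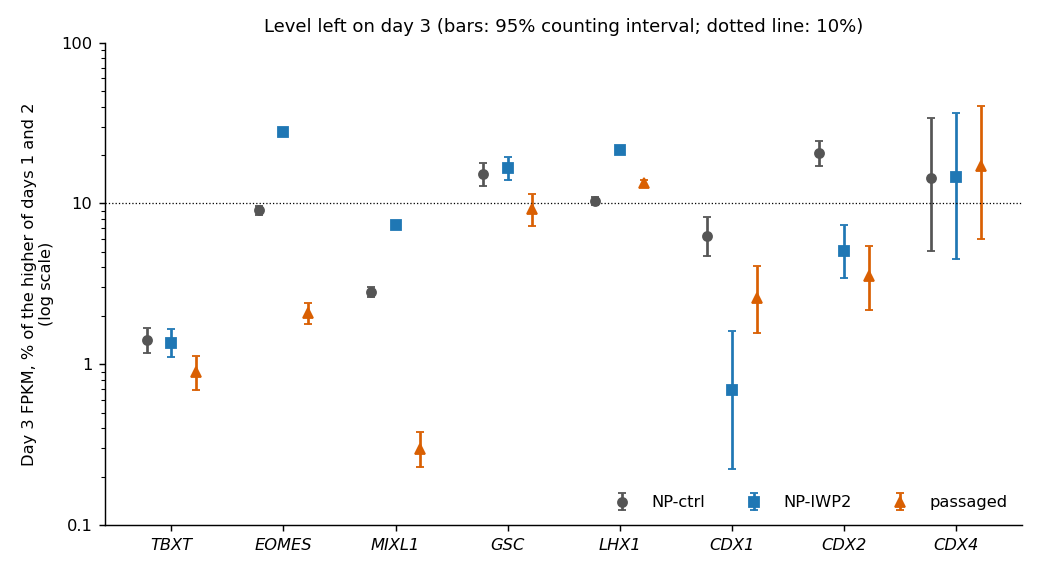
FPKM on Day 3 as a percentage of the higher of the Day 1 and Day 2 FPKM (y axis, log scale) for each gene (x axis) in the 3 arms, with 1 library per point, bars for the 95% counting interval and a dotted line at 10%. MIXL1 in passaged cells is lowest at 0.296%, and EOMES in NP-IWP2 cells is highest at 27.7%.

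The Day 3 libraries were then compared between arms. The 2 comparisons with NP-ctrl share its library. In passaged against NP-ctrl cells, 3 of the 8 genes (MIXL1, EOMES and CDX2) were lower by 1 or more on log2(FPKM + 1), which 3.48% of all genes were, and none was higher (5.02% of all genes). In NP-IWP2 against NP-ctrl cells, EOMES, MIXL1 and LHX1 were higher (3.29% of all genes) and CDX1 and CDX2 were lower (0.858% of all genes). In passaged against NP-IWP2 cells, EOMES and MIXL1 were lower (5.05% of all genes) and none was higher (3.65%). The median difference of the 8 genes was -0.67 for passaged against NP-ctrl, 0.06 for NP-IWP2 against NP-ctrl and -0.54 for passaged against NP-IWP2, and that of all genes was 0.03, 0.06 and 0. In the NP-IWP2 comparison EOMES, MIXL1 and LHX1 lay above that median and CDX1 and CDX2 below it.

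Among the streak genes, MIXL1 differed most between passaged cells and each other arm, and EOMES most between NP-IWP2 and NP-ctrl. On Day 3 MIXL1 had 737 counts for NP-ctrl, 1601 for NP-IWP2 and 65 for passaged cells. It was 9.54-fold lower in passaged than in NP-ctrl cells (7.40 to 12.5), 2.62-fold higher in NP-IWP2 than in NP-ctrl cells (2.40 to 2.86), and lower in passaged than in NP-IWP2 cells at a ratio of 0.040 (0.0308 to 0.0513). EOMES had 910, 2309 and 176 counts and differed the same way, with ratios of 4.35-fold lower (3.70 to 5.14), 3.06-fold higher (2.83 to 3.30) and 13.3-fold lower (11.4 to 15.6). Of the 21206 genes, 25 (0.118%) were higher under IWP2 and lower after passaging when compared with NP-ctrl, each by 1 or more, and EOMES and MIXL1 are among them. This count was made after the values of EOMES and MIXL1 had been seen.

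TBXT and GSC differed less. TBXT, with 128, 102 and 68 counts, was lower in passaged than in NP-ctrl cells (ratio 0.631, 0.463 to 0.853) and did not differ in NP-IWP2 cells within counting error (0.960, 0.733 to 1.25). GSC, with 169, 153 and 86 counts, gave 0.605 (0.461 to 0.788) and 1.09 (0.870 to 1.37). LHX1, with 1460, 2510 and 1588 counts, was the only streak gene not lower in passaged than in NP-ctrl cells, at a ratio of 1.29 (1.20 to 1.39), and it was 2.07-fold higher in NP-IWP2 cells (1.94 to 2.21). For LHX1 the size depended on the scaling: with TMM factors, which equalize the bulk of genes rather than total counts, its difference for NP-IWP2 against NP-ctrl was 0.88 on the log2 scale and no longer reached 1.

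CDX1 and CDX2 were highest in NP-ctrl cells. CDX2, with 146, 30 and 21 counts, was 4.04-fold lower under IWP2 (2.71 to 6.20) and 5.85-fold lower after passaging (3.69 to 9.74), and these arms did not differ from each other within counting error (ratio 0.691, 0.376 to 1.25). CDX1, with 55, 5 and 19 counts, was 9.13-fold lower in NP-IWP2 (3.69 to 29.2) and 2.44-fold lower in passaged cells (1.42 to 4.35), and was 3.75-fold higher in passaged than in NP-IWP2 cells (1.35 to 12.8). CDX4, with 6, 5 and 6 counts, allowed ratios of 0.318 to 4.44 for passaged against NP-ctrl, so no difference was detectable at this depth. On Day 3, then, NP-IWP2 cells held more EOMES, MIXL1 and LHX1 and less CDX1 and CDX2 than NP-ctrl cells, and passaged cells held less of each of these 5 genes except LHX1.

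**Figure D3:**
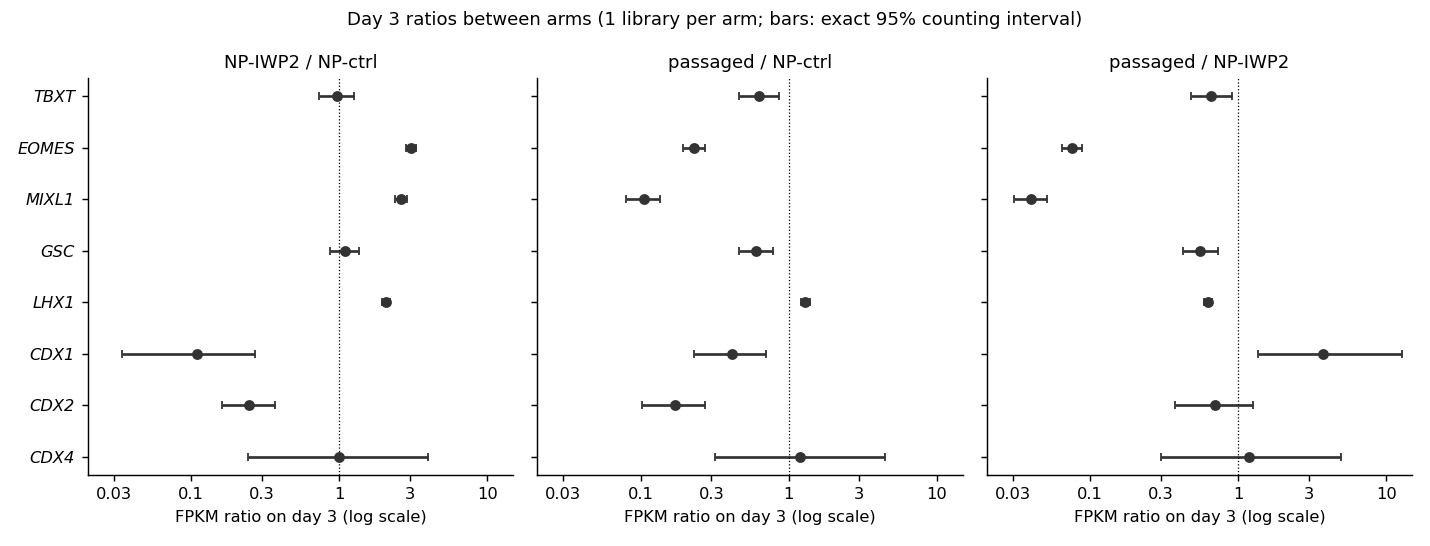
Ratio of the Day 3 FPKM between arms (x axis, log scale, dotted line at 1) for each gene (y axis), with 1 library per arm and bars for the exact 95% counting interval. In NP-IWP2 against NP-ctrl cells EOMES and MIXL1 lie right of 1 at 3.06 and 2.62 and CDX1 and CDX2 left of it, and in passaged against NP-ctrl cells MIXL1 lies farthest left, 9.54-fold lower.

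Other values moved with these differences. Mitochondrial transcripts took 1.53% of counts in the passaged Day 3 library, and 4.80% and 4.66% in NP-ctrl and NP-IWP2, but leaving these counts out of the totals changed none of the member calls. Definitive endoderm, which also arises through EOMES and MIXL1, had 8 markers whose summed FPKM on Day 3 was 141 for NP-ctrl, 168 for NP-IWP2 and 97.4 for passaged cells, with none of the 8 at 0 and none differing by 1 or more from NP-ctrl in either arm. GATA4 and GATA6, which are also genes of cardiac mesoderm, made up most of the sum, and FOXA2 went the other way, at 3.33, 4.80 and 6.61. The summed level of 8 trophoblast markers was 23.3, 25.6 and 16.0, and CGA, ELF5, VGLL1 and CGB5 were at 0 in all 3 libraries. GATA3 was at 20.09, 22.32 and 9.13, whereas TFAP2A was higher in passaged cells, at 0.16, 0.20 and 1.46, and TFAP2C was at 2.87, 2.94 and 4.99. The 8 intestinal markers summed to 0.30, 0.49 and 0.62, with APOA4, SI and FABP2 at 0 in all 3. The summed level of 8 pluripotency genes was 385, 380 and 558, none at 0, compared with 1966 on Day 0. LIN28A made up 194.27, 173.71 and 382.28 of these sums, while POU5F1 was at 82.11, 75.97 and 48.03 and NANOG at 0.57, 1.04 and 0.19, and the median difference of the list for passaged against NP-ctrl was -0.09. The part of these cell types in the Day 3 differences was not tested.

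The partners of these factors were followed in a list of 24 genes of the streak and nascent mesoderm, all above the filter. On Day 1, 18 of the 24 were higher than on Day 0 (3.26% of all genes) and 1 was lower (3.48%), and their median difference was 2.97. On Day 3, 8 of the 24 were lower (3.48% of all genes) and 2 higher (5.02%) in passaged than in NP-ctrl cells, with a median of -0.74. The largest decreases were those of MESP2 and MESP1, related bHLH factors of nascent cardiac mesoderm, from 46.46 to 2.71 and from 41.84 to 2.59. The largest increases were those of NKX1-2, a homeobox gene of the caudal epiblast, from 1.07 to 7.81, and of DKK1, a secreted WNT antagonist, from 2.91 to 10.93. In NP-IWP2 against NP-ctrl cells only 1 partner was higher (LEFTY2, a NODAL antagonist, 4.18 against 1.08) and 1 lower (DKK1, 0.27 against 2.91), with a median of 0.04. Of all genes, 3.29% were higher and 0.858% lower there. The other 22 partners differed by less than 1 in a comparison where 5 of the 8 factors differed by 1 or more. These counts depend on the limit, since the partner OTX2 lay just under it at 0.999 and LHX1 just over it at 1.01. In passaged against NP-IWP2 cells, 11 partners were lower (5.05% of all genes) and 5 higher (3.65%).

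HOX genes of the trunk, which CDX factors are known to activate, were followed in a list of 27, of which 10 passed the filter and had at least 1 FPKM somewhere. On Day 3, 4 of the 10 were lower in NP-IWP2 than in NP-ctrl cells (0.858% of all genes) and none higher (3.29%), with a median of -0.62. In passaged cells 2 were lower than in NP-ctrl (3.48% of all genes) and none higher (5.02%), with a median of -0.46. HOXB2 had FPKM values of 43.06 for NP-ctrl, 16.08 for NP-IWP2 and 27.79 for passaged cells, and HOXB5 had 2.09, 0.24 and 0.86. HOXB4 was at 3.07, 0.96 and 0.69, and HOXB6 at 1.23, 0.06 and 0. Antisense transcripts overlap parts of the HOXB cluster, and whether counting used the strand is not stated. By Day 10, compared with NP-ctrl, 6 of the 10 were lower under IWP2 (5.64% of all genes) and 8 after passaging (11.7% of all genes), and none was higher (3.71% and 5.67% of all genes). HOXB1, HOXB8 and HOXC4 passed the filter only through NP-ctrl libraries, so the filter itself favoured lower values in the other arms.

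After Day 3 most of the 8 genes approached the floor. On Day 10, TBXT, CDX1 and CDX4 had at most 1 count in any arm, GSC at most 3, EOMES at most 5 and LHX1 at most 7. Only MIXL1 and CDX2 had 10 or more counts in any Day 10 library, and they differed between the arms in opposite directions.

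CDX2 remained in NP-ctrl cells. Its counts on Days 5, 7 and 10 were 76, 33 and 67 for NP-ctrl (FPKM 1.38, 0.71 and 1.42), 3, 4 and 11 for NP-IWP2 and 3, 0 and 0 for passaged cells. On Day 5 it was 22.9-fold lower in NP-IWP2 (7.53 to 113) and 24.7-fold lower in passaged cells (8.13 to 122), each from 3 counts, a call made in the lower direction by 1.55% and 4.42% of all genes. On Day 10 it was lower in NP-IWP2 cells at a ratio of 0.140 (0.0665 to 0.266) and at least 25.2-fold lower in passaged cells, with 5.64% and 11.7% of all genes lower by at least 1. In NP-ctrl cells CDX2 was 2.00-fold higher on Day 10 than on Day 7 (1.30 to 3.13). The 8 markers listed as intestinal had a summed Day 10 FPKM of 533 for NP-ctrl, 75.5 for NP-IWP2 and 3.39 for passaged cells. APOA4 alone made up 525.14, 72.45 and 0 of these sums, so the sum does not by itself identify intestinal cells. Per the paper, untreated static cells and some IWP2-induced cells also expressed the hepatocyte marker AFP on Day 10. FABP1, at 5.41, 0.44 and 0.11, and VIL1, at 1.52, 0.61 and 0.11, had the order of the sum. FABP2 went the other way, at 0.60, 1.59 and 2.92. The rest were low, with SI at 0.04, 0 and 0 and CDH17 at 0.13, 0.18 and 0. LGALS4 was at 0.13, 0.14 and 0.18 and TFF3 at 0, 0.07 and 0.07. Trophoblast markers summed to 11.1, 9.0 and 3.49. The part of these cell types in the CDX2 difference was not tested.

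MIXL1 was higher again in passaged cells. Its counts on Days 5, 7 and 10 were 55, 190 and 258 in passaged cells (FPKM 1.77, 6.23 and 8.33), 68, 93 and 86 in NP-IWP2 (2.36, 2.83 and 2.67) and 75, 29 and 20 in NP-ctrl cells (2.35, 1.08 and 0.73). The passaged level was 3.52-fold higher on Day 7 than on Day 5 (2.59 to 4.84). The 3 arms did not differ on Day 5 within counting error, and on Day 10 they were in the order passaged, NP-IWP2, NP-ctrl. Passaged cells were then 11.4-fold above NP-ctrl (7.24 to 19.0) and 3.12-fold above NP-IWP2 (2.44 to 4.03), and NP-IWP2 was 3.65-fold above NP-ctrl (2.23 to 6.28). Of all genes, 5.67%, 3.07% and 3.71% were higher by at least 1 in these comparisons. The level of 8.33 is 1.06% of the Day 1 level. The 6 cardiomyocyte markers had the same order on Day 10, with summed FPKM values of 3446, 1442 and 472 and none at 0, and their part in the MIXL1 difference was not tested.

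**Figure D4:**
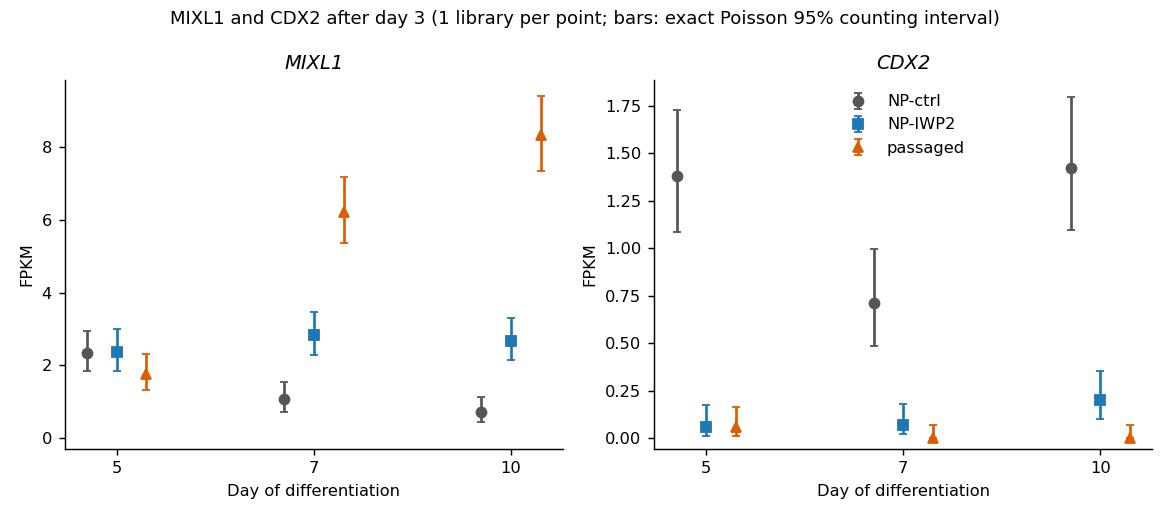
FPKM of MIXL1 (left) and CDX2 (right) on the y axis against day of differentiation on the x axis, with 1 library per point and bars for the exact Poisson 95% counting interval. On Day 10 MIXL1 is highest in passaged cells at 8.33 and lowest in NP-ctrl at 0.73, and CDX2 is highest in NP-ctrl at 1.42 and at 0 in passaged cells.

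Arm differences that held across days were tested with edgeR's quasi-likelihood test on the 12 libraries from Day 3 onward, blocked by day. The days of 1 series of cultures are the only repetition, so the test measures how steady an arm difference was from day to day. In passaged against NP-ctrl cells, CDX2 was lower with a log2 fold change of -4.41 (SE 0.72, edgeR adjusted p = 0.00791), lower on 4 of 4 days, and was the only one of the 8 genes called, compared with 2.76% of all genes called lower and 1.64% called higher. The fitted fold depends on the prior count, because 2 of the passaged libraries had 0 counts. The call was lost without Day 5 (edgeR adjusted p = 0.0618), without Day 7 (0.0704) and when only the passaged and NP-ctrl libraries were fitted (0.104). In passaged against NP-IWP2 cells, EOMES was lower with a log2 fold change of -2.91 (SE 0.46, edgeR adjusted p = 0.0149), lower on 4 of 4 days, again the only call (0.915% of all genes were called lower and 0.415% higher). On Day 10, with 0 against 5 counts, the arms did not differ within counting error (ratio 0, 0 to 1.14). The EOMES call was lost without Day 3 (edgeR adjusted p = 0.120), Day 5 (0.0662) or Day 7 (0.0722), and with limma on log2(FPKM + 1) (0.365).

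In NP-IWP2 against NP-ctrl cells edgeR called none of the 8 genes and 0.0189% of all genes. CDX1, CDX2 and EOMES had an unadjusted p under 0.05 there, limma called none of the 8 and DESeq2 called CDX2. The edgeR estimates were -3.14 (SE 0.65, adjusted p = 0.361) for CDX2 and 1.57 (SE 0.40, adjusted p = 0.629) for EOMES. MIXL1 passed in no comparison, and its differences between passaged and other cells had opposite signs on Day 3 and Day 10. Of the 24 partners, the same test called 4 lower in passaged than in NP-ctrl cells (CER1, FGF17, WNT8A and WNT3) and 1 higher (FGF8). Of all genes, 2.76% and 1.64% were called so. In passaged against NP-IWP2 cells it called 4 partners lower (CER1, HHEX, OTX2 and APLNR), as it did 0.915% of all genes. It called none in NP-IWP2 against NP-ctrl. CER1, a secreted NODAL and BMP antagonist of the anterior streak, was on Day 3 at 6.85 for NP-ctrl, 11.08 for NP-IWP2 and 0.18 for passaged cells, the order of arms that EOMES had. Of the 10 HOX genes above the filter, 8 were called lower in passaged than in NP-ctrl cells (2.76% of all genes), and HOXB6 alone in the other comparisons. Among the called HOX genes, HOXB1, HOXB8 and HOXC4 passed the filter only through NP-ctrl libraries, so the filter favoured a lower call for them. These genes outside the 8 were named after their calls were known.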

How the data were processed

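The authors prepared bulk RNA libraries, trimmed reads with Cutadapt (1.9.1), aligned them to hg38 with Hisat2 (2.0.1) and counted them per gene with HTSeq (0.6.1), per the labels and processing notes. The kit named is a long-read kit whereas these are short-read tools, so values scaled by length carry that doubt. Strand use in counting and the annotation release were not given in the sources used here. The deposited table holds raw counts and FPKM, and FPKM recomputed from the counts differed by at most 0.005. Samples were grouped by their titles, and the 8 genes, gene lists and tests were chosen with earlier results of these data known.

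Pairs of libraries were compared on log2(FPKM + 1), which understates changes of low genes, among 21206 genes with FPKM of at least 1 in at least 1 library. A difference of at least 1 was counted, with no p-value. Ratios have exact 95% intervals (Clopper-Pearson on the share of counts), shares of the peak and levels likewise, for counting error only, since PCR copies are not independent molecules. A library at 0 was set to 3 counts for a bound. Days 3 to 10 were tested on the counts with edgeR (4.0.16, TMM, R 4.3.3) with Benjamini-Hochberg adjustment, and only the edgeR fit was also run on simulated data. The alternatives were limma (3.58.1) and DESeq2 (1.42.0). Named genes were the 8, at most the 2 largest increases and decreases of each list on Day 3, the 3 protein-coding genes most correlated with each, overlapping or adjacent genes and paralogs.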

Additional observations from a re-analysis of the deposited data

Results flagged for a closer look

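MIXL1 stood out because the same contrast had opposite signs on different days. On log2(FPKM + 1), the difference of passaged from NP-ctrl cells was -2.81 on Day 3, but 1.80 on Day 7 and 2.43 on Day 10. The difference of passaged from NP-IWP2 cells was -4.15 on Day 3 and 1.35 on Day 10. The difference between days was not tested, since each value compares single libraries. Of the 737 genes lower in passaged than in NP-ctrl cells on Day 3, 70 (9.50%) were higher in passaged cells on Day 10.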

How the results depend on the processing

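Each value rests on 1 library, and counts under about 10, as for CDX4 on Day 3 and most genes on Day 10, limit what can be compared. Of 144 recalculations of the Day 3 differences of the 8 genes, 129 moved by less than the counting interval, 15 moved by more and none changed sign. With a limit of 2 in place of 1 on the log2 scale, 1 gene remained changed in passaged against NP-ctrl cells. In NP-IWP2 against NP-ctrl cells 0 remained, and in passaged against NP-IWP2 cells 2 did. With 5% in place of 10% of the peak, 2 genes were under the limit in NP-ctrl and 2 in NP-IWP2 cells. In passaged cells TBXT, EOMES, MIXL1, CDX1 and CDX2 were under it. The scaling moved the share of higher calls over all genes for passaged against NP-ctrl on Day 3 from 59.1% to 74.96% with TPM and 50.1% with median-of-ratios factors. TPM moved the median of all genes to 0.28 (0.18 for NP-IWP2), and the signs of the 8 genes held. The number of genes called over Days 3 to 10 in passaged against NP-ctrl cells was 0 to 1 with 1 day left out, 0 with only the 2 arms and 2 without a filter. For passaged against NP-IWP2 it was 0 to 1 with 1 day left out and 0 with limma, and for NP-IWP2 against NP-ctrl it was 1 with DESeq2, 2 without a filter and 2 with only the 2 arms. The sign of an uncalled log2 fold change turned for GSC in NP-IWP2 against NP-ctrl without Day 5 (-0.09) or Day 7 (-0.17, range with 1 day left out up to 0.42) and for CDX4 with limma (0.0029). In passaged against NP-IWP2 cells it turned for CDX1 without Day 3 (-0.86, range up to 1.11) and for MIXL1 without Day 7 (-0.33), without Day 10 (-0.69, range up to 1.14), with limma (-0.54) and with only the 2 arms (-0.16). The cause of these changes was not tested. The edgeR fit compares the arms within each day, and no further pairing by replicate number was made, since the labels give none.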

Other observations

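Transcripts that overlap or adjoin the streak genes were highest on the same day as those genes. LNCDAT, a long non-coding RNA antisense to TBXT that overlaps it at chr6:166167920-166171376, had 11, 2094 and 994 counts on Days 0, 1 and 2, 16 to 36 on Day 3 and 0 in every later library. LHX1-DT, which starts 115 bases from LHX1 on the other strand, had 20, 15 and 1226 counts on Days 0, 1 and 2, and on Day 3 it had 274 for NP-ctrl, 388 for NP-IWP2 and 196 for passaged cells. ENSG00000276707, antisense within LHX1, had 0, 0 and 239 counts. ENSG00000285205, which starts 158 bases from GSC, had 2, 205 and 190. Without strand, reads of TBXT and LNCDAT, and of LHX1 and ENSG00000276707, cannot be told apart where they overlap.

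Over the 15 libraries, log2(FPKM + 1) of EOMES and GSC had a Pearson correlation of 0.98, that of TBXT and MIXL1 0.93, of CDX1 and CDX2 0.86 and of LHX1 and CDX1 0.17. These are descriptions over a time course in which libraries of neighbouring days resemble each other. The most similar genes were CD1D for TBXT (0.98), FGF17 for EOMES (0.99), NCR1 for MIXL1 (0.94), WNT8A for LHX1 (0.95), TNS4 for CDX1 (0.95), SERPINI2 for CDX2 (0.91) and PPP2R2C for CDX4 (0.98). Of 5 paralogs, TBX19, TBX21 and LHX5 passed the filter, and none of the 3 was higher on Day 1 than on Day 0 by at least 1. LHX5 was at 3.37 on Day 0, 0.48 on Day 1 and 1.18 on Day 2. TBR1 and GSC2 stayed below the filter. TBR1 had 0, 8 and 147 counts on Days 0, 1 and 2. On Day 3 it had 52 for NP-ctrl, 116 for NP-IWP2 and 2 for passaged cells, the order of arms that EOMES had. GSC2 had 4, 25 and 1 counts on Days 0, 1 and 2.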
